A study of Mus musculus with 7 samples.

Results

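The 10 genes described here encode core parts of the JAK-STAT pathway in macrophages. They are the kinases Jak1 and Jak2, the transcription factors Stat3, Stat5a, Stat5b and Stat6, and the feedback inhibitors Socs1, Socs2, Socs3 and Cish. They were chosen by symbol, by their place in the pathway, out of 55385 gene IDs, with earlier results of these data known. Each symbol matched 1 ID. The RNA came from tumour-associated macrophages sorted by flow cytometry from gliomas that QPP7 cells had formed in the brains of C57BL/6 mice, after 100000 cells were injected. In the shChi3l1 group (3 libraries) the tumour cells bore a short hairpin RNA directed at Chi3l1, and in the shSC group (4 libraries) they bore the control hairpin. The hairpin was in the tumour cells only, and the macrophages of both groups came from hosts of the same strain. The comparison therefore asks how these genes differed in macrophages taken from tumours of either hairpin.

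Cytokine receptors of this pathway have no kinase of their own. Bound JAK kinases phosphorylate the receptor and then the STAT proteins, which pair, enter the nucleus and switch on target genes. Among those targets are the SOCS genes and Cish, whose proteins block the receptor or the kinase and so close a feedback loop. In macrophages, IL-10 and IL-6 act mainly through STAT3, GM-CSF through STAT5, and IL-4 and IL-13 through STAT6. The activity of STAT proteins is set by phosphorylation, which RNA counts do not measure.

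STAT dimers often bind the palindrome TTCNNNGAA. The promoter stretches of 3 feedback inhibitors are shown because these genes are read out as targets of the STATs, and because 2 of them hold that motif near the start. The sequences come from RefSeq's GRCm38.p6 table, which has 11 promoter windows for 9 of the 10 genes, all but Socs2. Each printed stretch runs 5′ to 3′ on the gene's strand, 200 bases before the start given in that table and 20 after it. Capitals mark TTCNNNGAA. These starts need not be those of the gene models used for counting. The Socs3 and Cish stretches lie inside the counted spans of these genes (117966079 to 117970047 and 107296026 to 107302784).
Socs3, chr11:117969347-117969566, minus strand: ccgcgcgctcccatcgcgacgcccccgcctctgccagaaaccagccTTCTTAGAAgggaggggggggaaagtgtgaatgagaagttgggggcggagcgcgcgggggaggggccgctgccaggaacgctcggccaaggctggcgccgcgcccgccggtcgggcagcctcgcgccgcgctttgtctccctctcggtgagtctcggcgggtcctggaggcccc
Cish, chr9:107296459-107296678, plus strand: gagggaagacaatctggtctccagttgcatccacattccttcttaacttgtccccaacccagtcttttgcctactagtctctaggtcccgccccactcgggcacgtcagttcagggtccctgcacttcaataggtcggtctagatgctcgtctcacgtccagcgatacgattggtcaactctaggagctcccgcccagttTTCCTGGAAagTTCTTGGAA
Socs1, chr16:10785517-10785736, minus strand: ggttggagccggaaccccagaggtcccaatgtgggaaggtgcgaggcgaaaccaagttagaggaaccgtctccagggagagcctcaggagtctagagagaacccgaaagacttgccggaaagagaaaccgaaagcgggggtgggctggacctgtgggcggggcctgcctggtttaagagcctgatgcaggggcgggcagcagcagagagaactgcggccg
In the full windows of 300 bases, searched on both strands (the motif reads the same on each), TTCNNNGAA was found in 2 of the 11 windows of these genes and in 8.3% of all 32851 promoter windows. The Socs3 match, TTCTTAGAA, began 154 bases before the start in the promoter table. Cish held TTCCTGGAA from base 1 and TTCTTGGAA from base 12, counted from its start in that table. In all windows, 2 or more matches occurred in 0.457%. The form with 4 free bases between TTC and GAA, which STAT6 is known to prefer, was in none of the 11 windows and in 6.95% of all windows. A match describes letters only and says nothing on binding in these cells.

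Reads assigned to genes numbered 23174989 to 36502664 in shChi3l1 libraries and 19169129 to 32590781 in shSC libraries. Chi3l1, listed as Chil1, had 28, 31 and 7 reads in shChi3l1 macrophages and 23, 28, 24 and 18 in shSC macrophages, which does not test a hairpin carried by the tumour cells. Whether libraries stem from different mice is not stated in the labels, so p-values speak only of the spread among these 7 libraries, which may be technical in part. All 10 macrophage markers were detected, with summed levels of 23640 to 45560 CPM (reads of a gene per 1000000 reads of the scaled library) in shChi3l1 libraries and 18660 to 29330 CPM in shSC libraries. Lyz2, lysozyme, was the most abundant of them. Transcripts of other cells were present too. Summed T and NK cell markers (12 genes) had 117.1 to 544.1 CPM in shChi3l1 and 81.53 to 778.9 CPM in shSC libraries, and B cell markers (8 genes) 155.4 to 1867 CPM in shChi3l1 and 81.61 to 528.5 CPM in shSC libraries. Dendritic cell markers (8 genes) summed to 632 to 968.2 CPM in shChi3l1 and 235.1 to 1407 CPM in shSC libraries, and neutrophil markers (8 genes) to 88.36 to 148.1 CPM in shChi3l1 and 45.49 to 126.2 CPM in shSC. Single genes weighed heavily in these sums. Ccr7 averaged 553.3 CPM in shChi3l1 and 609.6 CPM in shSC, the most of any dendritic cell marker. Csf3r, also among the receptor chains below, averaged 98.19 and 49.67 CPM, the most of any neutrophil marker. S100a8 averaged 24.69 and 6.555 CPM, Retnlg 1.02 and 8.416 CPM and Mmp8 2.767 and 7.781 CPM. S100a9, Ly6g, Cxcr2 and Camp each averaged at most 1.09 CPM in either group. Endothelial markers (8 genes) summed to 26.98 to 115.7 CPM in shChi3l1 and 27.2 to 81.98 CPM in shSC, and fibroblast and pericyte markers (8 genes) to at most 24.55 CPM in any library. No marker was at 0 in every library. In RNA of sorted pools, fewer cells of a type and less RNA per cell cannot be told apart.

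Per length, Socs3 was the most abundant of the 10 transcripts. Levels between genes were compared as TPM, in which reads are divided by exon length and each library is scaled to 1000000. Exon length pools the exons of all annotated transcripts of a gene, so it can exceed the length of the transcripts present. TPM, and the order of genes by TPM, carry that uncertainty. Socs3, the inhibitor of receptors of the IL-6 family, averaged 444.5 TPM over the 7 libraries (307 to 624) and stood above all other 9 genes in mean level. Stat6, which carries the IL-4 and IL-13 signal, averaged 57.4 TPM (12.4 to 102), and Socs1, the inhibitor of interferon and IL-4 signalling, 52.56 TPM (25.3 to 77.2). Stat3 averaged 34.11 TPM (7.3 to 54.1), Jak1 25.82 TPM (4.35 to 45.9), Cish 16.54 TPM (5.87 to 29) and Stat5b 13.45 TPM (3.45 to 20.2). The 3 lowest were Socs2 at 5.916 TPM (2.77 to 11.7), Jak2 at 5.861 TPM (1.83 to 10.7) and Stat5a at 4.154 TPM (1.14 to 8.14). Of the 9 neighbouring steps in that order, 4 held in every library. These were Socs3 over Stat6 (mean log2 difference in TPM 3.22 ± 1.07, SD, n = 7), Stat3 over Jak1 (0.54 ± 0.32), Stat5b over Socs2 (1.13 ± 0.52) and Jak2 over Stat5a (0.51 ± 0.48). Stat6 and Socs1 had no stable order, with Stat6 above Socs1 in 3 of 7 libraries. Stat5b exceeded its near-copy Stat5a in each library, by a TPM ratio of 3.03, 3.04 and 5.2 in shChi3l1 and 4.13, 2.48, 3.15 and 3.05 in shSC. How reads shared by this pair of paralogs were assigned is not given in the sources used here, so their ratio is uncertain.

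**Figure D1:**
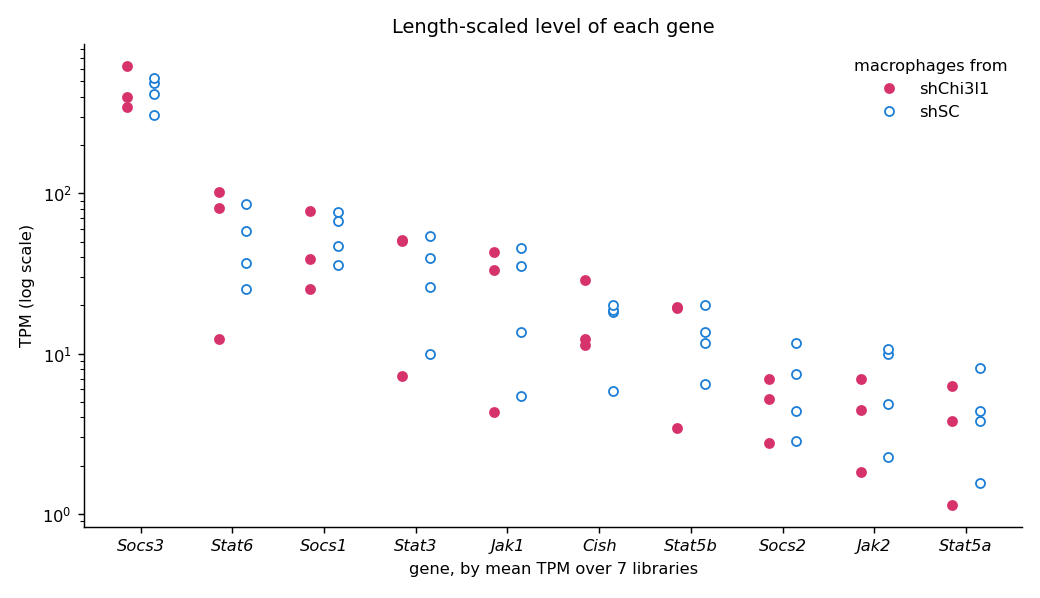
Level of each gene in TPM (log axis), 1 point per library, with shChi3l1 and shSC libraries in separate colours. Socs3 lies at 307 to 624 TPM in all 7 libraries, while Stat5a, at 1.14 to 8.14 TPM, has the lowest mean.

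None of the 10 genes differed between shChi3l1 and shSC macrophages beyond the spread between libraries. All 10 passed the filter on low counts. In edgeR's quasi-likelihood test over 15448 genes, 0 of the 10 had an adjusted p under 0.05, against 0% of all tested genes. At an unadjusted p under 0.05, edgeR called 0 of the 10, against 1.48% of all genes (229), and DESeq2's Wald test also called 0 of the 10, against 2.28% of all genes. At an adjusted p under 0.05 DESeq2 called 0 of the 10, against 0.00651% of all genes (1 gene). The groups overlapped for every one of the 10 genes, while 2.49% of all genes had groups apart, 1.24% higher and 1.25% lower in shChi3l1. The log2 fold change was above 0 for 7 of the 10 (6 when scaled by library totals alone), against 57.6% of all genes, and below 0 for 3, against 42.4% of all genes. Its median was 0.26, against 0.07 over all genes. Without shChi3l1 2 the count above 0 was 4 of 10 and the median was -0.03.

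**Figure D2:**
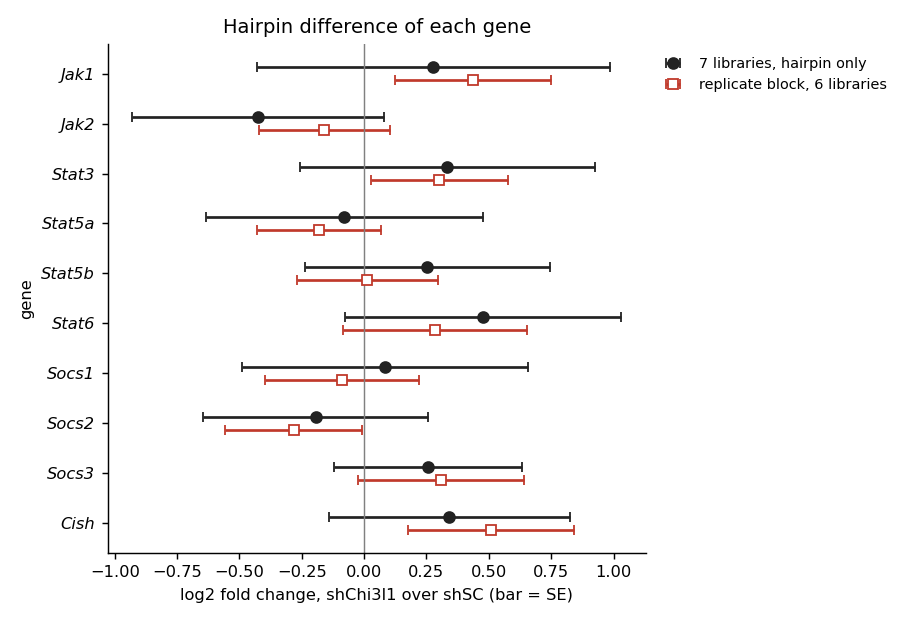
Log2 fold change of each gene, shChi3l1 over shSC, from edgeR over all 7 libraries and from the fit with the replicate number as a block over 6 libraries; bars are ±1 standard error. Point estimates lie between -0.43 (Jak2) and 0.51 (Cish, blocked fit), and no gene had an adjusted p under 0.05 in either fit.

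Jak1 and Jak2 are the kinases that most of these receptors share. Jak1 (ENSMUSG00000028530.14, mm10 chromosome 4, 101152367 to 101265282, minus strand) had 22.5, 145 and 110 CPM in shChi3l1 macrophages 1 to 3 and 22.9, 137, 45.8 and 99.7 CPM in shSC macrophages 1 to 4. Both replicate 1 libraries were low, both replicate 2 libraries were high, and the groups overlapped. The log2 fold change of Jak1 was 0.28 (SE 0.71, edgeR unadjusted p = 0.703, adjusted p = 0.9998). Leaving out shChi3l1 2 gave -0.21, and leaving out shChi3l1 1 gave 0.72. Jak2 (ENSMUSG00000024789.13, chromosome 19, 29251828 to 29313080, plus strand) had 6.6, 16.4 and 10.2 CPM in shChi3l1 and 6.6, 20.7, 11.2 and 21 CPM in shSC. Both lowest values were again the replicate 1 libraries. For Jak2 the log2 fold change was -0.43 (SE 0.51, edgeR unadjusted p = 0.421), negative also in each alternative fit, between -0.83 without shChi3l1 2 and -0.19 without shChi3l1 1 when 1 library was left out. The Jak1 to Jak2 ratio in TPM was 2.38, 6.16 and 7.45 in shChi3l1 and 2.41, 4.58, 2.84 and 3.31 in shSC.

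Stat3, Stat5a and Stat5b lie side by side on chromosome 11. Stat5b (ENSMUSG00000020919.11) spans 100780731 to 100850724 on the minus strand, and 8626 bases further Stat5a (ENSMUSG00000004043.14) spans 100859351 to 100885169 on the plus strand. Stat3 (ENSMUSG00000004040.16) spans 100885098 to 100939540 on the minus strand and shares 72 bases with Stat5a, which with libraries that do not mark strand cannot be split, and which are 1% or less of the exon bases of either gene. Stat6 (ENSMUSG00000002147.18) lies on chromosome 10, 127642986 to 127660957, plus strand.

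Stat3, the STAT of IL-6 and IL-10 signalling, had 49.8, 229 and 221 CPM in shChi3l1 macrophages and 55.1, 212, 115 and 147 CPM in shSC macrophages. The replicate 1 libraries lay lowest in both groups, and shChi3l1 2 and 3 were the highest 2 of 7. The fold change of Stat3 was 0.33 on the log2 scale (SE 0.59, edgeR unadjusted p = 0.585), and it lay between 0.03 without shChi3l1 2 and 0.75 without shChi3l1 1. Stat6 had 39.2, 210 and 164 CPM in shChi3l1 and 64.1, 156, 75.4 and 99.5 CPM in shSC. Its highest 2 values were shChi3l1 libraries and so was its lowest. Its log2 fold change was 0.48 (SE 0.55, edgeR unadjusted p = 0.409), the furthest from 0 among the 10. Leaving out 1 library gave values between 0.03 (without shChi3l1 2) and 0.89 (without shChi3l1 1, unadjusted p = 0.0501).

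Stat5a and Stat5b mediate the GM-CSF signal in myeloid cells. Stat5a had 5.83, 21.1 and 12.4 CPM in shChi3l1 macrophages and 6.42, 23.9, 14.4 and 10.5 CPM in shSC macrophages. The 2 groups covered nearly the same range, and the log2 fold change was -0.08 (SE 0.55, edgeR unadjusted p = 0.89). It was 0.32 without shSC 2 and -0.61 without shChi3l1 2. Stat5b had 13.7, 49.7 and 49.9 CPM in shChi3l1 and 20.6, 46, 35.2 and 25 CPM in shSC. The shChi3l1 values held both the lowest and the highest library. The log2 fold change of Stat5b was 0.25 (SE 0.49, edgeR unadjusted p = 0.619), with -0.001 without shChi3l1 2, 0.005 without shChi3l1 3 and 0.63 without shChi3l1 1.

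Socs3 varied least between libraries among the 10 genes. Socs3 (ENSMUSG00000053113.3, chromosome 11, 117966079 to 117970047, minus strand) had 719, 843 and 531 CPM in shChi3l1 macrophages and 813, 366, 560 and 595 CPM in shSC macrophages. The highest value was in shChi3l1 2 and the lowest in shSC 2, and the other libraries lay in between in both groups. Its log2 fold change was 0.26 (SE 0.38, edgeR unadjusted p = 0.513), and it lay between 0.09 without shSC 2 and 0.43 without shSC 1. Cish (ENSMUSG00000032578.7, chromosome 9, 107296026 to 107302784, plus strand), a STAT5-induced inhibitor, had 52.3, 86.9 and 36.5 CPM in shChi3l1 and 67.5, 49.5, 17.4 and 50.7 CPM in shSC. Here shSC 3 was the lowest library and shChi3l1 2 the highest. For Cish the log2 fold change was 0.34 (SE 0.48, edgeR unadjusted p = 0.497), -0.07 without shChi3l1 2 and 0.59 without shChi3l1 3. Of its exon bases, 11.5% are overlapped by the genes Gm17040 and Gm17041, whose reads cannot be split from its own.

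Socs1 (ENSMUSG00000038037.5, chromosome 16, 10782240 to 10785536, minus strand) had 161, 52.7 and 33.8 CPM in shChi3l1 macrophages and 129, 43, 62.8 and 76.5 CPM in shSC macrophages. Both replicate 1 libraries, the lowest for the JAKs and STATs, were the highest here, and the groups overlapped. Between groups the log2 fold change of Socs1 was 0.08 (SE 0.57, edgeR unadjusted p = 0.887), -0.90 without shChi3l1 1 and 0.45 without shChi3l1 3. Socs2 (ENSMUSG00000020027.18, chromosome 10, 95385362 to 95417180, minus strand), which limits growth hormone and other STAT5 signals, had 18.9, 31 and 22.9 CPM in shChi3l1 and 15.7, 45.9, 33.2 and 16.3 CPM in shSC. All shChi3l1 values of Socs2 lay inside the shSC range. Socs2 had a log2 fold change of -0.19 (SE 0.45, edgeR unadjusted p = 0.677), 0.16 without shSC 2 and -0.42 without shChi3l1 2.

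**Figure D3:**
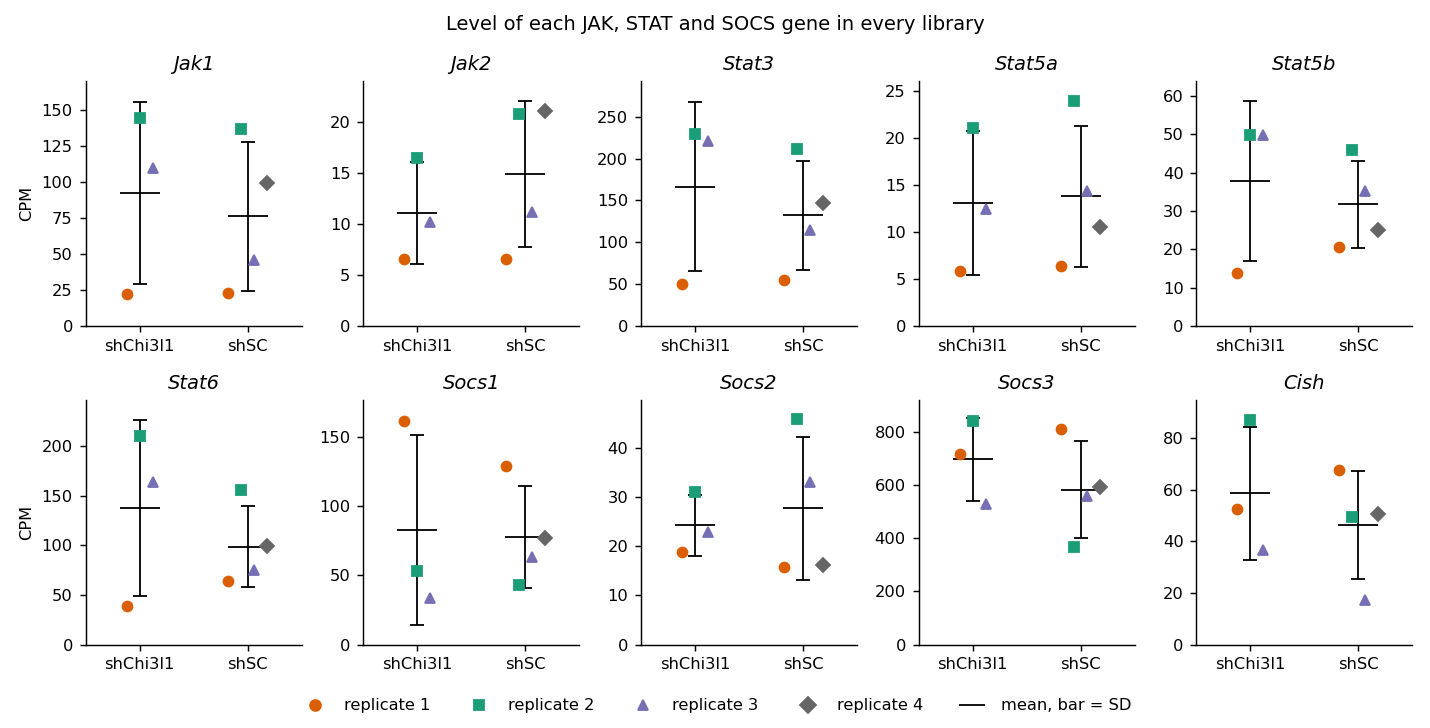
TMM-scaled CPM (linear axis) of each gene in every library, shChi3l1 left of shSC, with replicate numbers, group means and SD bars. The groups overlap in all 10 panels, and in the JAK and STAT panels the libraries numbered 1 lie lowest in both groups.

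The libraries numbered 1 stood apart from the others in the kinases and STATs, whichever hairpin the tumour carried. Both replicate 1 libraries were the lowest 2 of 7 in all 6 JAK and STAT genes, against 19.6% of all tested genes, and in 0 of the 4 inhibitors. For Socs1 they were the highest 2 of 7, as for 20.5% of all genes. Centred on each gene's mean over the 7 libraries, log2 CPM of Jak1 was -1.54 in shChi3l1 1 and -1.51 in shSC 1, that of Stat3 -1.34 and -1.19, and that of Socs1 1.22 and 0.90. The ratio of Socs3 to Stat3 in TPM was 47.6 in shChi3l1 1 and 48.7 in shSC 1, against 12.1 and 7.91 in shChi3l1 2 and 3 and 5.68, 16.1 and 13.4 in shSC 2 to 4. The Socs1 to Stat3 ratio was 10.6 and 7.66 in the same replicate 1 libraries and 0.501 to 1.80 in the other 5.

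A term for replicate number, added after the values had been seen, was tested in edgeR over the 6 libraries numbered 1 to 3. At an unadjusted p under 0.05 edgeR called 9 of the 10 genes for this term, against 27.9% of all 14950 genes, and Socs3 was the one not called. Jak1 had the smallest unadjusted p, 0.00175, with an edgeR adjusted p of 0.0663, and edgeR gave 0 of all genes an adjusted p under 0.05 for this term. Over all 7 libraries the SD of log2 CPM was 1.18 for Jak1, 0.94 for Stat3 and 0.42 for Socs3, beside a median of 0.70 over all tested genes.

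Several properties of the libraries moved with that pattern. Genes with more than 5000 exon bases took 12.6%, 20.7% and 18.6% of reads in shChi3l1 libraries 1 to 3 and 14.8%, 19.9%, 16.8% and 19.8% in shSC libraries 1 to 4. The 83 genes of ribosomal proteins, which are short, took 6.69%, 2.19% and 3.08% in shChi3l1 and 6.31%, 2.65%, 3.65% and 4.94% in shSC. Replicate 1 of each group thus held the lowest share of long genes and the highest share of ribosomal protein genes. Exon length, pooled over annotated transcripts, is 4402 bases or more in each JAK and STAT gene, and 2908 bases in Socs1, 2891 in Socs3, 6419 in Cish and 9531 in Socs2. The 6419 bases of Cish lie within a gene span of 107296026 to 107302784, so its transcripts may be shorter. Each library's trend against exon length was then removed. Both replicate 1 libraries were the lowest 2 in 5 of the 6 JAK and STAT genes (not in Stat5b). In Socs1 they were the highest 2. The share of all genes with these orders after the removal was not computed, so the counts have no background beside them. The part of these properties in the remaining pattern was not tested.

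**Figure D4:**
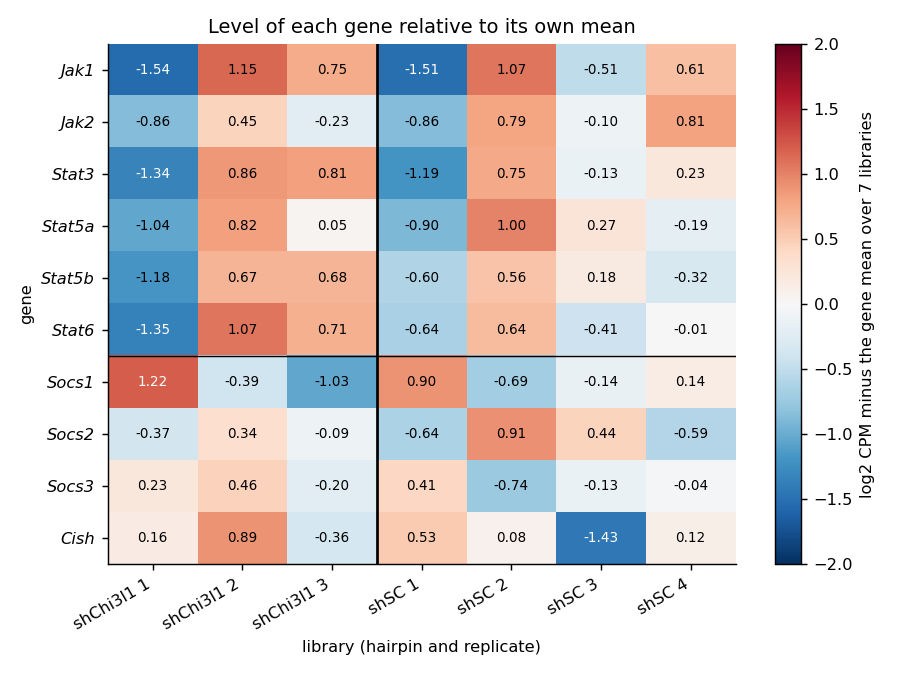
Heat map of log2 CPM of each gene centred on its mean over the 7 libraries, shChi3l1 columns left of shSC columns. Both columns numbered 1 are low for the 6 JAK and STAT genes (Jak1 at -1.54 and -1.51) and high for Socs1 (1.22 and 0.90).

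Within same-numbered replicates the genes did not move in one direction. The log2 difference in CPM, shChi3l1 minus shSC, was above 0 for 3 of the 10 genes in pair 1, 7 in pair 2 and 5 in pair 3. No gene was higher in all 3 pairs, against 12.5% of all genes. Stat5a alone was lower in all 3, by -0.14, -0.18 and -0.22, against 10.7% of all genes. In pair 3 the 6 JAK and STAT genes had a median difference of 0.73, with 1.26 for Jak1 and 1.12 for Stat6, whereas in pair 1 their median was -0.14. Socs3 differed by 1.21 in pair 2 and by -0.18 and -0.08 in pairs 1 and 3, and Cish by -0.37, 0.81 and 1.07 in pairs 1 to 3. With replicate number as a block, standard errors were smaller for each of the 10 genes, to unlike degrees. The largest fall was for Jak1, at 0.31 against 0.71 without the block, and the smallest for Socs3, at 0.33 against 0.38. The blocked log2 fold changes ran between -0.28 (Socs2) and 0.51 (Cish, edgeR unadjusted p = 0.176), and 0 of the 10 reached an unadjusted p under 0.05, against 2.91% of all genes.

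**Figure D5:**
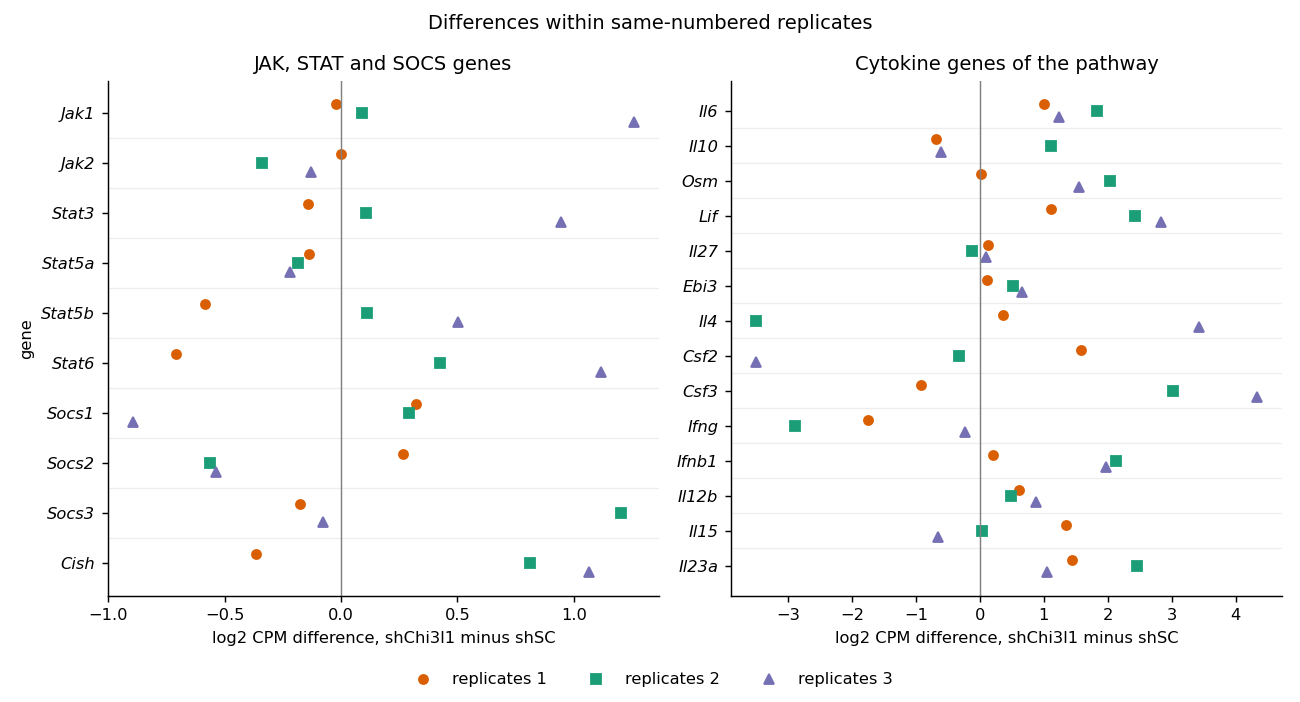
Log2 difference in CPM (shChi3l1 minus shSC) of each gene in the same-numbered replicates 1, 2 and 3; the line at 0 marks equal values. Stat5a lies below 0 in each pair, and the JAK and STAT genes range in pair 3 between -0.22 (Stat5a) and 1.26 (Jak1).

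Of the other pathway genes, no list given here held a gene with an adjusted p under 0.05 in edgeR, and the counts by direction are read beside the 57.6% of all genes above 0. Among 4 other JAK and STAT genes, Jak3, the kinase partner of the common gamma chain, had a log2 fold change of 0.57 (SE 0.62) and Tyk2, an interferon and IL-12 receptor kinase, one of 0.52 (SE 0.65). For Stat2, which acts in type I interferon signalling, it was 0.39 (SE 0.65), and for Stat4, which carries the IL-12 signal and shares 26.7% of its exonic sequence with an overlapping gene, -0.34 (SE 0.88). Both replicate 1 libraries were the lowest 2 of 7 in 3 of these 4, Jak3, Stat2 and Stat4, and not in Tyk2, against 19.6% of all genes. Among 14 other inhibitors, 13 were above 0 and 1 below (8 above 0 when scaled by library totals alone, and 8 without shChi3l1 2 or without shChi3l1 3), with a median of 0.19 and none at an unadjusted p under 0.05. Ptpn6, the phosphatase SHP-1, was the most abundant at 468.9 ± 117 CPM in shChi3l1 and 460.9 ± 103 CPM in shSC, with a log2 fold change of 0.03 (SE 0.35).

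Receptor chains that signal through JAKs were mostly above 0, with no call. Of 22 chains, 20 had a log2 fold change above 0 and 2 below, and 18 were above 0 when scaled by library totals alone. Their median was 0.41, and 0.10 without shChi3l1 2, when 13 of 22 were above 0. None of the 22 had an edgeR unadjusted p under 0.05, against 1.48% of all genes. Without shChi3l1 1, 4 of the 22 had one, against 5.61% of all genes in that fit. Il13ra1, a chain of the IL-13 receptor upstream of STAT6, had 129, 219 and 123 CPM in shChi3l1 macrophages and 113, 108, 120 and 85.5 CPM in shSC macrophages. It was the only one of the 22 whose groups did not overlap, against 1.24% of all genes apart and higher in shChi3l1. Il13ra1 had a log2 fold change of 0.56 (SE 0.33, edgeR unadjusted p = 0.124). The alpha chain of the IL-6 receptor, Il6ra, had one of 1.08 (SE 0.66) and the shared signal chain Il6st one of 0.83 (SE 0.60), and for both genes the lowest library was shChi3l1 1.

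Counts among the ligands changed with the replicate block, and also when shSC 4 was left out without a block. Of 16 cytokines, 14 were tested (not Il11 and Il13), and 9 were above 0 and 5 below, with none at an unadjusted p under 0.05 in edgeR over the 7 libraries and 3 of 14 without shSC 4 (0.957% of all genes in that fit). In same-numbered pairs 7 of the 14 were higher in all 3, against 12.5% of all genes, and 1, Ifng, was lower in all 3. With the replicate block 7 of the 14 had an unadjusted p under 0.05, against 2.91% of all genes, and each had an adjusted p of 1. Osm, oncostatin M, a ligand of the STAT3 pathway, had 534, 964 and 482 CPM in shChi3l1 macrophages and 526, 234, 165 and 498 CPM in shSC macrophages. Its log2 fold change was 0.89 (SE 0.49, edgeR unadjusted p = 0.103) over 7 libraries and 1.22 (SE 0.42, unadjusted p = 0.0275) with the block. Il6, singled out after its values were seen, had 189, 138 and 53.7 CPM in shChi3l1 and 93.5, 38.7, 22.8 and 137 CPM in shSC, with 0.80 (SE 0.64) over 7 libraries and 1.36 (SE 0.25, edgeR unadjusted p = 0.00145) with the block. The blocked fit leaves out shSC 4, the unpaired library, in which both ligands were within the range of shChi3l1 macrophages.

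Fold changes of STAT target genes lay on both sides of 0. Of 12 genes often described as STAT3 targets, 9 were above 0 and 3 below, with a median of 0.24. Nfil3, a transcription factor gene, had 159, 201 and 144 CPM in shChi3l1 macrophages and 101, 108, 103 and 60.3 CPM in shSC macrophages. Its groups did not overlap, and its log2 fold change was 0.85 (SE 0.33, edgeR unadjusted p = 0.0275, adjusted p = 0.9998). It was the 1 gene of the 12 with an unadjusted p under 0.05, against 1.48% of all genes, and none of the 12 had one without shSC 4 or without shChi3l1 2. Myc, a growth regulator gene of the same list, had 9.83, 31.7 and 28.6 CPM in shChi3l1 and 22.3, 49.6, 33.1 and 149 CPM in shSC. It was lower in all 3 same-numbered pairs, its groups overlapped, and its log2 fold change was -1.44 (SE 0.70, edgeR unadjusted p = 0.0696) over 7 libraries and -0.68 (SE 0.27, unadjusted p = 0.0482) with the replicate block. Of 9 STAT5 targets, 5 were above 0 and 4 below, with none at an unadjusted p under 0.05. Of 13 tested STAT6 targets of mouse macrophages, 5 were above 0 and 8 below, with a median of -0.15. That median was 0.07 without shChi3l1 3, -0.57 without shChi3l1 1, -0.44 without shSC 3 and -0.39 when scaled by library totals alone. Ccl24, an eosinophil chemokine, had the smallest p among them, but its level of 1260 CPM in shSC 1 stood far above 1.09 to 113 CPM in the other shSC libraries and 3.62 to 17.3 CPM in shChi3l1. With the replicate block, 2 STAT3 (Nfil3 and Myc), 1 STAT5 and 2 STAT6 targets had an edgeR unadjusted p under 0.05, against 2.91% of all genes, and none had an adjusted p under 0.05. The STAT5 target was Osm, already counted among the ligands, as some of the lists share genes.

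Lists for cell handling and for cell types are given beside these. All 10 macrophage markers and all 7 tested B cell markers had log2 fold changes above 0 (medians 0.36 and 0.59). When scaled by library totals alone, 7 and 6 of them were above 0. None of them had an edgeR unadjusted p under 0.05 over the 7 libraries. Without shChi3l1 2, 6 of the 10 macrophage markers were above 0. Without shChi3l1 3, 0 of 8 tested B cell markers were above 0, with a median of -1.35. Over the 7 libraries, 6 of 8 endothelial (5 with library totals) and 4 of 8 dendritic cell markers were above 0. So were 4 of 12 T and NK cell and 3 of 4 tested fibroblast and pericyte markers. Of tested neutrophil markers 2 of 5 were above 0, and of tested tumour and glial markers 1 of 11 (median -1.27). Without shSC 4, 6 of 11 tumour and glial markers were above 0 (median 0.05). Without shSC 3, 9 of 12 T and NK cell markers were above 0. Without shChi3l1 3, 3 of 8 endothelial and 1 of 8 dendritic cell markers were above 0. Of 20 immediate-early and heat-shock genes, known to react to tissue dissociation, 18 were above 0 (median log2 fold change 0.57), and 4 had an edgeR unadjusted p under 0.05, against 1.48% of all genes. Without shChi3l1 1 it was 8 of 20, against 5.61% of all genes in that fit, and without shChi3l1 3, shSC 2 or shSC 3 it was 1, against 1.09%, 1.44% and 1.34%. Their summed level was 13280, 12380 and 17450 CPM in shChi3l1 libraries and 12550, 8372, 12250 and 9640 CPM in shSC libraries. All 10 microglia markers were above 0 (median 2.01, and 0.72 without shChi3l1 3). Of these, 6 had an edgeR unadjusted p under 0.05, against 1.48% of all genes. The count was 1 without shChi3l1 3 (against 1.09%) and 2 with the replicate block (against 2.91%). It was 8 in DESeq2's Wald test (against 2.28%) and 10 with voom and quality weights (against 4.62%). Microglia markers summed to 1218, 2188 and 4417 CPM in shChi3l1 and 1690, 1307, 1212 and 978.5 CPM in shSC. Tumour and glial markers summed to 82.53, 30.51 and 16.1 CPM in shChi3l1 and 38.97, 63.74, 45.65 and 318.3 CPM in shSC. The part of these transcripts in the levels of the 10 genes was not tested.

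Profiles close to those of 2 inhibitors were sought among 5244 genes whose mean log2 CPM reached 4. The measure was the root mean square distance between log2 CPM centred per gene over the 7 libraries. Nearest to Socs3 were Anapc4 (0.15), Tm9sf2 (0.16) and Slc30a6 (0.17). Nearest to Cish were Zmpste24 (0.31), Tlr2 (0.32) and Fem1b (0.32). This distance depends on a gene's own spread. The SD of log2 CPM over the 7 libraries was 0.42 for Socs3 and 0.74 for Cish. Distances to Socs3 and to Cish can therefore not be compared with each other.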

How the data were processed

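Macrophages were sorted from tumours digested for 15 min with collagenase IV; which antibodies defined the sort was not given. Per the labels' protocols, 10 ng of RNA entered a low-input SMART-Seq cDNA kit, and 1 ng of the product entered Nextera XT, a kit without strand information. The deposited values are whole-number counts of reads per gene, 1 file per library. Trim Galore, HISAT2, featureCounts and mm10 are named in the submitters' processing notes. Versions and settings were not stated there.

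IDs were matched, without version, to GENCODE mouse release 21 symbols: 55144 of 55385 matched, and the 241 others took at most 0.00179% of reads. No 2 libraries agreed within sampling noise (smallest chi-square per gene of any pair 138.6). The filter on low counts was filterByExpr with a minimum count of 10, and TMM gave the scaling factors. The robust quasi-likelihood F test of edgeR 4.0.16 (R 4.3.3) had hairpin as its single term and Benjamini-Hochberg adjustment over 15448 genes, and SE came from the F statistic. CPM are relative to each library's TMM-scaled total, and logarithms were taken after adding 0.5 to the count. TPM were computed from the counts and the exon length column. PCR copies are not independent molecules, so depth limits precision only in part. The script was tested on simulated data.

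Alternatives were DESeq2 1.42.0, other scalings, no filter, limma 3.58.1 voom with quality weights, offsets that take out a loess trend (span 0.5) of log2 ratio against exon length, the replicate block, and leaving out libraries.

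Groups and replicate numbers come from the sample titles. The labels call replicates 1 to 3 paired in a figure. Deviations from group means correlated at 0.306, 0.26 and 0.188 within same-numbered pairs, all above the 0.1 limit. The numbers were therefore used as pairs in the replicate block and the within-pair differences, but not in the main fit. However, shChi3l1 3 with shSC 2 correlated at 0.322 and shChi3l1 2 with shSC 4 at 0.2, so the limit does not single out same-numbered libraries.

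The 10 genes and the gene lists were chosen with earlier results of these data known. Named beside the 10 were, of each pathway list, the 3 genes of smallest unadjusted p and the most abundant, of each marker list the most abundant, and the 3 nearest profiles to Socs3 and Cish. The text gives those that bear on a result. Some items of these lists are not reported here.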

Additional observations from a re-analysis of the deposited data

Results flagged for a closer look

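Groups of 4 to 10 samples were searched for a library whose gap to its nearest neighbour took up most of the group's range, and only the 4 shSC libraries form such a group. Of 64 values tested, 6 had such a library, where chance gives about 1 in 20. That rate holds for independent values not picked beforehand. Here many genes were picked by p or abundance in these data, and Fabp7 is part of the tumour and glial sum. The count can therefore not be read against that rate. None of them was one of the 10 genes. In shSC 4, Ptpn2 was at 47 CPM (others 65.7 to 68.7), Nfil3 at 60.3 CPM (101 to 108), Fabp7 at 141 CPM (13.1 to 24.1) and the summed tumour and glial markers at 318.3 CPM (38.97 to 63.74). In shSC 1, Ccl24 was at 1260 CPM (1.09 to 113). In shSC 2, Il6ra was at 18.4 CPM (7.02 to 8.86).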

How the results depend on the processing

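None of the 10 genes reached an unadjusted p under 0.05 in any of the 18 alternatives. The smallest was 0.0501, for Stat6 without shChi3l1 1. The sign of the log2 fold change held in all 18 for Jak2, Stat3, Stat6 and Socs3, in 17 for Socs2, in 16 each for Jak1 and Cish, in 15 each for Stat5a and Stat5b, and in 9 for Socs1. The median over the 10 genes was 0.15 with the replicate block and -0.004 with the block and length trend offsets together, and -0.034 to 0.347 when each library was left out. Scaling by library totals moved the median of all genes by -0.198 on the log2 scale. Over all genes, 229 had an unadjusted p under 0.05, against 927 with no low-count filter, 350 in DESeq2's Wald test, 713 with voom and quality weights, 435 with the replicate block, 399 with the block and length trend offsets, 145 without shChi3l1 3 and shSC 4, and 869 without shChi3l1 1 and shSC 1 (chosen after seeing the data). Leaving out each library gave 143 (without shSC 4) to 908 (without shChi3l1 1). No gene passed at the adjusted threshold in edgeR over the 7 libraries, and DESeq2 called 1. The causes of these shifts were not tested. The replicate block changed no call among the 10 genes.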
